A study of Homo sapiens with 6 samples.

Results

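The 38 genes described here encode zinc finger proteins and lie in a cluster, with other genes among them, on the long arm of human chromosome 19, at 19q13.41 to 19q13.42, from ZNF175 to ZNF331. They were picked by gene symbol from a list, with no threshold on a measured value, out of 56832 rows in each count table. The list itself was chosen with earlier results of these data known. All 38 symbols were present, 35 had at least 10 counts summed over the 6 libraries, and 32 of those passed a filter on low counts and were tested together with 17415 genes in all. Messenger RNA had been measured by poly(A) RNA-seq in HEK293T cells, an embryonic kidney epithelial line, in which GLO1 was knocked out in every library. GLO1 encodes glyoxalase 1, which clears methylglyoxal (MGO), a reactive by-product of glycolysis. The design set 3 untreated libraries (replicates 1, 2 and 4) against 3 libraries of cells given 0.2 mM MGO overnight (replicates 1, 3 and 4), and its title concerns glycation of histone H3 and the promoter mark H3K4me3. The labels name neither separate cultures nor clones, so p-values reflect only how these 6 libraries scatter, and that scatter may be technical.

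Proteins of this kind carry a row of C2H2 zinc fingers that reads DNA, and most of those encoded in the chromosome 19 clusters also carry a KRAB domain, which recruits the corepressor TRIM28 (KAP1) and, through it, the H3K9 methyltransferase SETDB1 and HP1 proteins. Many bind copies of transposable elements and keep them silent. The clusters grew by repeated gene duplication, so neighbouring genes resemble each other in sequence. They are generally transcribed at low levels.

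In GENCODE release 29 (GRCh38, the assembly of hg38) the genes span chromosome 19, positions 51571298 to 53580269, with 17 genes on the plus strand and 21 on the minus strand, all annotated as protein coding. RefSeq promoter sequences (GRCh38.p14, 250 bases before to 50 bases after the start) were matched by symbol for 32 of the 38 genes. ZNF649, ZNF480, ZNF610, ZNF600, ZNF28 and ZNF665 had no entry. The upstream 250 bases of 4 genes are printed here, 5′ to 3′ on the gene's strand, because these genes mark the range of response described further on. ZNF841 and ZNF350 showed the largest rises among the better expressed genes, ZNF766 rose 2.82-fold, and ZNF611 was the only member called lower. Capitals mark matches, on either strand, to the motifs GGGCGG (read as CCGCCC on the other strand) or CCAAT. They lie at chr19:52095766-52096015 (minus strand) for ZNF841, chr19:51986841-51987090 (minus strand) for ZNF350, chr19:52269337-52269586 (plus strand) for ZNF766 and chr19:52735045-52735294 (minus strand) for ZNF611.
ZNF841: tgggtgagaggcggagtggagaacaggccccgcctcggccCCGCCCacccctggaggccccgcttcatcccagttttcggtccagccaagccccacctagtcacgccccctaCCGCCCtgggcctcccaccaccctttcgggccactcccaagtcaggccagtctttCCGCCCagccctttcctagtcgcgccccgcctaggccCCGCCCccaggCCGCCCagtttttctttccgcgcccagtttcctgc
ZNF350: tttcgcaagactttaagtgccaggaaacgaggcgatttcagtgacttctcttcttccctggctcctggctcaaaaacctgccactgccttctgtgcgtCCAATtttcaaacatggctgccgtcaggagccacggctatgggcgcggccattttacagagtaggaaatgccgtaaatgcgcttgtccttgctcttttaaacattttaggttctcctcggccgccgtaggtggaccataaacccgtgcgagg
ZNF766: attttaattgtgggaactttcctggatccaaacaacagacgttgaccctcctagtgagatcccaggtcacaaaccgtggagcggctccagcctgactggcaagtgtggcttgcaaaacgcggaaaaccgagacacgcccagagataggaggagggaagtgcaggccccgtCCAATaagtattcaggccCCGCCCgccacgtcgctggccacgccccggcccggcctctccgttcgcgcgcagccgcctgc
ZNF611: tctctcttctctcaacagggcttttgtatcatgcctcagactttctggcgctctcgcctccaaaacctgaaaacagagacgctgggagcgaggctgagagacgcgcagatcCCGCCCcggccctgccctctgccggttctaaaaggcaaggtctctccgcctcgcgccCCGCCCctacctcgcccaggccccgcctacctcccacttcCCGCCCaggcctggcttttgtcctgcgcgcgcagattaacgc
These 4 stretches hold 15 to 20 CG dinucleotides each, and ZNF841 and ZNF611 both hold repeated CCGCCC runs. Whether such runs bear on the change was not tested.

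Promoters of the cluster held a median of 25 CG dinucleotides per 300 bases in 32 members, against 14 in 35116 RefSeq promoters of that length. The quartiles were 20.75 and 27 in members and 4 and 28 in all promoters. The members' median thus lay below the upper quartile of all promoters. The 35116 promoters were not selected by gene type, while all members are annotated as protein coding. The sets are therefore unlike, also for the motif shares that follow. GGGCGG, searched on both strands, was found in 26 of 32 members (81.2%) and in 45.0% of all promoters. CCAAT was in 9 of 32 members (28.1%, against 34.6% of all), TGANTCA in 6 (18.8%, against 7.71%), CCGGAAGT in 5 (15.6%, against 4.14%), TGATGNAA in 1 (3.12%, against 3.62%) and TATAAA in 0 (against 11.5%). These motifs do not contain one another. Among tested members the log2 difference ranged from -0.33 to 2.61 where GGGCGG was present (22 genes) and from 0.41 to 2.41 where it was not (6 genes), so the ranges overlapped. With CCGGAAGT it ranged from 1.32 to 1.99 (4 genes, median 1.47) and without it from -0.33 to 2.61 (24 genes, median 0.83). Medians with and without were 1.17 and 0.99 for CCAAT, and 1.17 and 0.95 for TGANTCA. A relation of any motif to the change was not tested. A match describes the letters in this window and is not evidence of binding.

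Depth was split as treatment was. Totals were 41002134 to 45910040 counts in untreated and 19195920 to 21544749 in MGO libraries, so MGO values rest on fewer reads. Levels are given as CPM, counts brought to a common depth with TMM factors, so a change in one gene is a change in its part of the measured RNA. The mitochondrial share was 4.20% to 5.42% of counts in untreated and 5.34% to 8.17% in MGO libraries, highest in replicate 1 of each group, and its part in the results was not tested. GLO1 transcripts were still detected, at 48.1 ± 2.57 CPM (SD, n = 3) in untreated and 140 ± 5.30 CPM (SD, n = 3) in MGO cells, and these counts do not show the coding lesion. Of 8 genes reported in HEK293 cells, 7 stood above 1 CPM in every library (summed level 1630 to 1680 CPM in untreated, 1220 to 1300 in MGO), the exception being NEFM. VIM was higher in MGO and the other genes of this list were lower. HMGA2 fell most in CPM, from 191 to 193 CPM in untreated to 25.3 to 30.3 CPM in MGO. The epithelial keratins KRT8 and KRT18 summed to 631 to 655 CPM in untreated and 1000 to 1020 CPM in MGO. The 5 markers of mature kidney, 3 of leukocytes and 2 of hepatocytes stayed under 1 CPM, as did COL1A2 and DCN among 3 fibroblast markers. The remaining fibroblast marker, COL1A1, stood at 22.3 to 23.6 CPM in untreated and 10.6 to 12.1 CPM in MGO libraries.

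Most genes of the cluster were higher in MGO. In raw counts, members summed to 11530 to 13138 in untreated and 9831 to 12291 in MGO libraries, although the MGO libraries held only 0.455 times the reads. Their share of all counts was 0.0275%, 0.0286% and 0.0281% in untreated replicates 1, 2 and 4 and 0.0512%, 0.0548% and 0.0571% in MGO replicates 1, 3 and 4, a 1.93-fold difference in the mean with no overlap between the groups. The edgeR quasi-likelihood test called 29 of 32 tested members at an adjusted p under 0.05, against 83.1% of all tested genes. Of the members 28 rose and 1 fell, while 41.8% of all tested genes were called higher and 41.2% lower. The median log2 fold change was 1.03 in the members and 0.01 in all tested genes. At least 2-fold rises were seen in 16 of 32 members against 19.8% of all tested genes, and 4 of these exceeded 4-fold. A rise of 3.97-fold, that of ZNF578, stood at percentile 90.3 of the changes of all tested genes. Rises of about 4-fold were therefore not particular to the cluster. All 3 MGO libraries lay above all 3 untreated ones for 27 members (41.8% of all genes) and below them for 2 (41.7% of all genes).

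**Figure D1:**
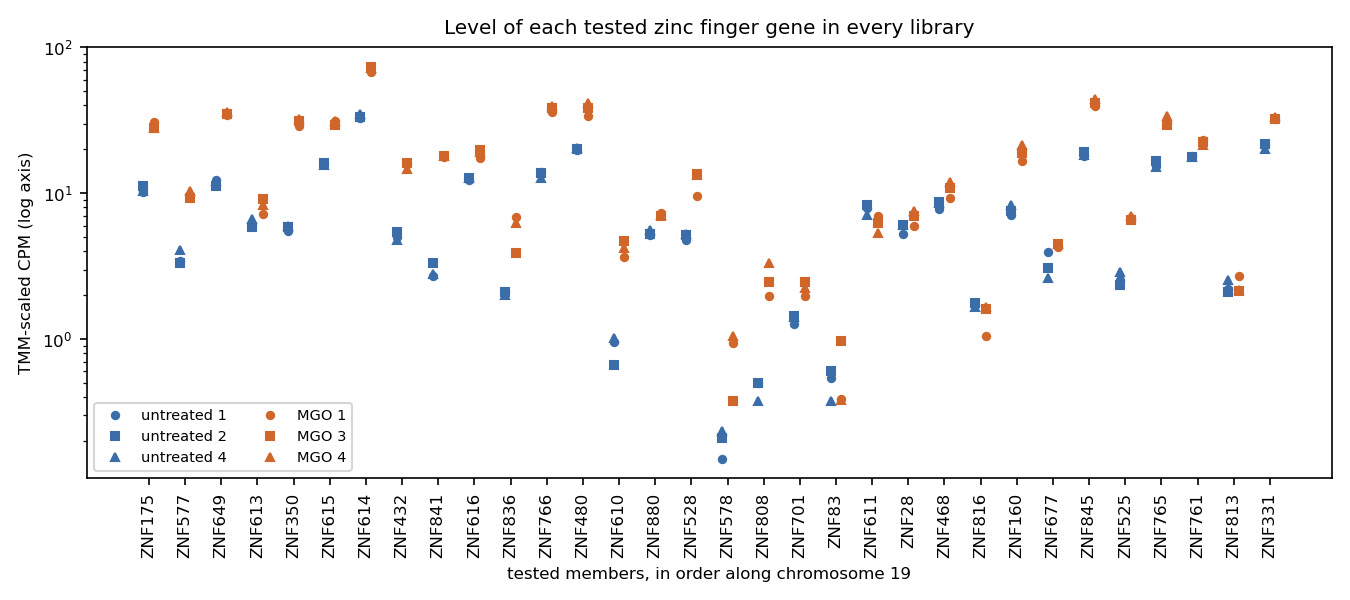
TMM-scaled CPM (log axis) of the 32 tested members in each library, in order along the chromosome, with untreated libraries in blue and MGO libraries in orange. The MGO points lie above the untreated points for 27 genes and close to or among them for ZNF83, ZNF611, ZNF28, ZNF816 and ZNF813.

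Members averaging at least 5 CPM over the 6 libraries are described first, by size of change. ZNF841, a little-studied member, stood at 2.70, 3.30 and 2.80 CPM in untreated replicates 1, 2 and 4 and at 17.8, 17.9 and 18.1 CPM in MGO replicates 1, 3 and 4. The groups were far apart and the MGO libraries nearly equal, for a 6.10-fold rise (log2 fold change 2.61, SE 0.0905, adjusted p = 3.12e-22). ZNF350, known as ZBRK1 and described as a partner of BRCA1 in repression, stood at 5.50, 5.89 and 5.94 CPM in untreated and 28.9, 31.2 and 32.2 CPM in MGO libraries. It rose 5.33-fold (log2 fold change 2.41, SE 0.0701, adjusted p = 2.98e-24), and its raw counts also rose, from 253 to 282 in untreated to 522 to 677 in the shallower MGO libraries. ZNF432, which has been linked to the DNA damage response, went from 5.00, 5.45 and 4.82 CPM to 15.9, 16.1 and 14.6 CPM, a 3.04-fold rise.

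A further group of members rose between 2.50-fold and 2.96-fold. ZNF649, described as a repressor of serum response element and AP-1 reporters, stood at 12.3, 11.2 and 12.1 CPM in untreated and 34.5, 34.8 and 35.9 CPM in MGO libraries, a 2.96-fold rise. ZNF766 stood at 14.0, 13.8 and 12.7 CPM and then 36.1, 38.4 and 39.6 CPM, a 2.82-fold rise. In both genes every MGO library stood more than 2-fold above every untreated one. ZNF175, known as OTK18 and studied in HIV-infected macrophages, went from 10.2, 11.2 and 10.4 CPM to 30.7, 28.2 and 27.9 CPM (2.72-fold). ZNF577 went from 3.45, 3.30 and 4.06 CPM to 9.62, 9.23 and 10.4 CPM (2.71-fold). ZNF160, described as a repressor of TLR4, went from 7.09, 7.56 and 8.32 CPM to 16.6, 19 and 21.6 CPM, 2.50-fold higher with a wider spread in MGO. Adjusted p over these members was 5.66e-14 for ZNF577, 3.39e-14 for ZNF160 and smaller for the others.

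The 4 members with the highest mean CPM also rose. ZNF614 had the highest level of the cluster, at 32.8, 33.4 and 35.1 CPM in untreated and 67.6, 73.9 and 72.0 CPM in MGO libraries (2.11-fold, adjusted p = 1.02e-19). ZNF845 stood at 18.1, 19.2 and 18.3 CPM and then 39.6, 41.3 and 44.0 CPM (2.25-fold). ZNF480 went from 19.7, 20.2 and 20.3 CPM to 34.1, 38.3 and 41.5 CPM (1.90-fold). These 3 genes kept the groups well apart, with the MGO libraries more scattered than the untreated ones. ZNF331, an imprinted gene at the telomeric end of the cluster, went from 21.3, 21.9 and 20.2 CPM to 32.1, 32.2 and 33.2 CPM, a 1.54-fold rise (adjusted p = 8.05e-12).

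One gene was called lower and 3 were not called. ZNF611, which has been reported to bind SVA retrotransposons, stood at 7.87, 8.27 and 7.14 CPM in untreated and 7.02, 6.28 and 5.32 CPM in MGO libraries. The groups did not overlap, but the nearest libraries stood at 7.02 and 7.14 CPM, and the change was 1.26-fold lower (log2 fold change -0.33, SE 0.103, adjusted p = 0.00404). That call ended with the replicate number as a fixed block (adjusted p = 0.0506) and when tested against a fold of 1.5 (adjusted p = 1), in a range over alternatives of 1.04e-06 to 1. ZNF816 stood at 1.73, 1.76 and 1.67 CPM and then 1.05, 1.61 and 1.66 CPM (log2 difference -0.24, SE 0.196, adjusted p = 0.253). ZNF813 stood at 2.22, 2.11 and 2.54 CPM and then 2.71, 2.15 and 2.19 CPM (log2 difference 0.034, SE 0.161, adjusted p = 0.848). For ZNF816, MGO replicates 3 and 4 lay just below the untreated libraries, and MGO replicate 1, at 19 counts, lay further below. The groups of ZNF813 overlapped, and the sign for ZNF813 turned with library size as the only scaling (-0.071). ZNF83 rested on 7 to 29 counts a library, with 0.539, 0.606 and 0.376 CPM in untreated and 0.387, 0.966 and 0.380 CPM in MGO libraries (log2 difference 0.16, SE 0.356, adjusted p = 0.679), and its groups overlapped.

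The other 16 tested members all rose, with log2 fold changes from 0.25 (ZNF28) to 2.50 (ZNF808). ZNF808, whose loss in humans impairs development of the pancreas, went from 16 to 24 counts in untreated to 36 to 70 counts in MGO libraries, or 0.458 ± 0.0710 to 2.60 ± 0.677 CPM (SD, n = 3 each), a 5.66-fold rise at a low level. ZNF610 rose 4.79-fold (0.876 to 4.18 CPM) and ZNF578 3.97-fold (0.198 to 0.787 CPM). These 3 genes had fewer than 100 counts in every library, and their standard errors, 0.176 to 0.387 on the log2 scale, were wider than those of the abundant members. ZNF677, described as a tumour suppressor gene silenced by promoter methylation in cancers, rose 1.37-fold (log2 fold change 0.45, adjusted p = 0.00410), a call lost in DESeq2 (adjusted p = 0.0790) and with no filter on low counts (0.0821). The smallest rise was that of ZNF28, at 5.28, 6.04 and 6.04 CPM in untreated and 5.97, 7.03 and 7.60 CPM in MGO libraries, with overlapping groups. Its call (adjusted p = 0.0271) was lost in 9 of 20 alternatives, among them without untreated replicate 1 (0.142), without MGO replicate 3 (0.117), without MGO replicate 4 (0.305), in DESeq2 (0.249) and with library size as the only scaling (0.201), in a range over alternatives of 0.00747 to 1.

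Among better expressed genes of this set, ZNF765 went from 15.7 ± 0.871 CPM in untreated to 31.1 ± 2.58 CPM in MGO libraries (1.99-fold), and ZNF615 from 15.8 ± 0.271 to 30.6 ± 1.02 CPM (SD, n = 3 each, 1.93-fold). ZNF616 rose from 12.4, 12.8 and 12.8 CPM to 17.4, 19.8 and 19.1 CPM (1.48-fold), and ZNF761 from 18.1, 17.8 and 17.7 CPM to 23.1, 22.6 and 21.5 CPM (log2 fold change 0.33). All 4 kept the groups apart, and the call on ZNF761 (adjusted p = 1.15e-05) was lost with no filter on low counts (0.0518). ZNF528 stood at 4.74, 5.16 and 5.26 CPM and then 9.62, 13.6 and 13.3 CPM (2.42-fold), with MGO replicate 1 the lowest of its group. ZNF836 stood at 2.11, 2.09 and 2.02 CPM and then 6.85, 3.87 and 6.27 CPM (2.73-fold), with MGO replicate 3, at 72 counts, well below the other two. ZNF525 went from 2.58 ± 0.258 to 6.74 ± 0.194 CPM (SD, n = 3 each, 2.62-fold). Smaller rises were those of ZNF701 (1.62-fold), ZNF880 (1.34-fold), ZNF613 (1.33-fold) and ZNF468 (1.29-fold), and the call on ZNF468 (adjusted p = 0.000432) was lost with no filter on low counts (0.0634).

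Of the 6 members outside the test, 3 had at least 10 counts in all. ZNF600 had 10 to 13 counts in untreated and 5 to 15 in MGO libraries, ZNF347 had 4 to 14 and 2 to 5, and ZNF320 had 2 to 9 and 0 to 2. With the minimum of 10 counts as the only filter, none of these 3 passed (edgeR adjusted p = 0.0924, 0.990 and 0.191, and 0 of them had an unadjusted p under 0.05). ZNF534 had 9 counts in total, ZNF415 had 2 and ZNF665 had 0, so no change was detectable at this depth.

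Divided by exon length, levels spanned a 210-fold range in untreated cells among tested members. ZNF614 stood first at 5.80 ± 0.205 CPM per kb of exon (SD, n = 3), followed by ZNF480 (4.15 ± 0.0620), ZNF761 (3.79 ± 0.0430) and ZNF615 (3.23 ± 0.0552), each apart from the next by more than their SDs. ZNF845 (2.87 ± 0.0911), ZNF649 (2.72 ± 0.126) and ZNF616 (2.58 ± 0.0428) lay within the SDs of the gene next to them in that order. Of the 31 neighbouring pairs in the order, 15 lay within their SDs and 16 did not. ZNF578 was last at 0.0276 ± 0.00598 CPM per kb. In MGO cells ZNF614 remained first at 12.2 ± 0.555 CPM per kb, while ZNF350 moved from rank 13 to 4, ZNF841 from 20 to 9 and ZNF611 from 15 to 25.

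**Figure D2:**
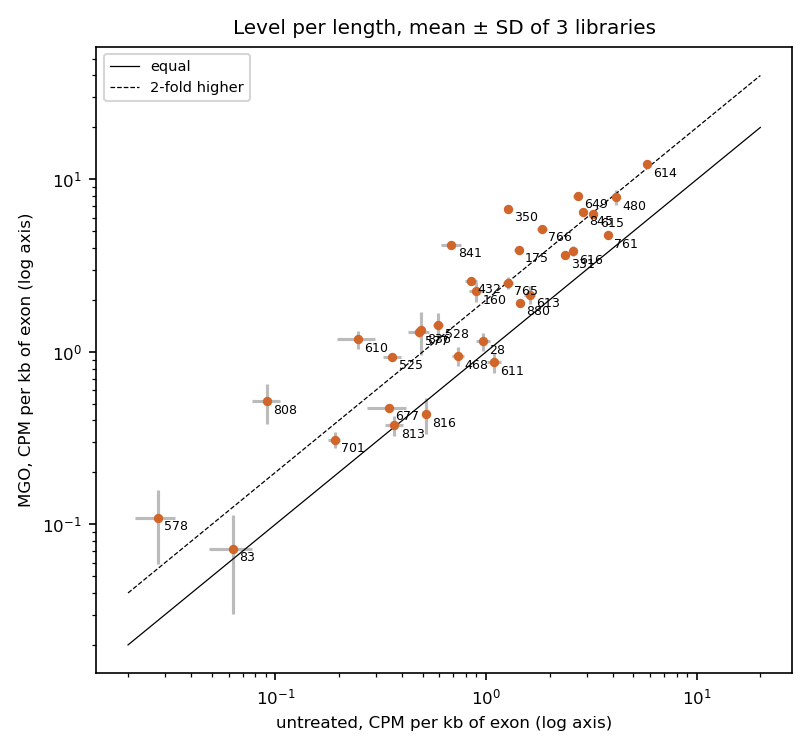
Level per kb of exon in untreated (x) and MGO (y) libraries, both on log axes, as mean ± SD of 3 libraries for each of 32 tested members, labelled by ZNF number. The points run from ZNF578 to ZNF614, most between the line of equality and the line of a 2-fold rise or above it, and ZNF350, ZNF841 and ZNF808 stand well above the 2-fold line.

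Change differed along the cluster, a split described after the values were seen. From ZNF175 to ZNF836, 11 of 11 tested members rose (median log2 fold change 1.44), and from ZNF766 to ZNF808, 7 of 7 tested members rose (median 1.49). In the next stretch, from ZNF701 to ZNF816, 3 of 6 tested members rose, 1 fell and 2 did not pass, with a median of 0.21 and no rise of 2-fold among them. The same stretch holds 2 zinc finger loci that are not members, ZNF137P and ZNF888, which rose 4.76-fold and 4.81-fold. From ZNF160 to ZNF331, 7 of 8 tested members rose and 1 did not pass (median 0.81). Strand did not sort the genes in the same way, with 15 of 16 plus-strand and 13 of 16 minus-strand members called higher. Over 32 members, the Spearman correlation of log2 fold change was -0.48 with place in the cluster, -0.11 with exon length and -0.14 with the untreated level per kb. These are descriptions of genes that share libraries, ancestry and neighbours.

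**Figure D3:**
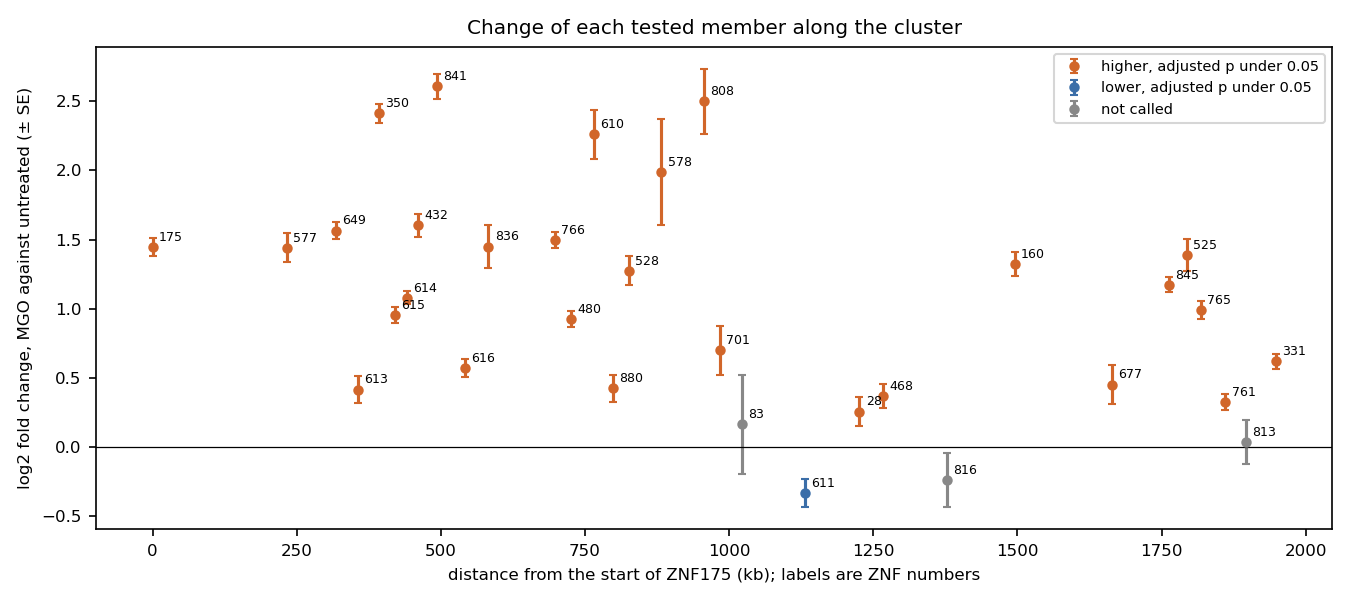
Log2 fold change of MGO against untreated (± SE from the edgeR fit) for 32 tested members against distance in kb from the start of ZNF175, with points labelled by ZNF number and coloured by call. Values of 0.37 or less run from ZNF83 to ZNF816, between larger rises on either side, and recur at ZNF761 and ZNF813 near the far end.

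Some members share sequence or annotated exons with other genes, and their single values are less certain. The share of 100-base windows of a gene's transcripts that also occur in transcripts of another annotated gene was 0 for 13 of the 32 tested members and under 5% for 24. ZNF468 was the extreme among tested members, at 52.0%, since its annotated exons overlap those of ZNF320 on the same strand over 6021 bases, and its value (1.29-fold higher, log2 fold change 0.37) is uncertain. ZNF808 and ZNF701 share exons over 712 bases, and ZNF841 shares 4.64% of its exon bases with ZNF432 on the same strand. Same-strand overlap with any annotated gene also covered 17.3% of the exon bases of ZNF808, 9.89% of ZNF701, 9.43% of ZNF816 and 6.09% of ZNF577, and AC011468.2 overlapped ZNF836 over 554 bases. Antisense transcripts overlapped 9.90% of the exon bases of ZNF578, 8.72% of ZNF701, 8.37% of ZNF432 and 7.06% of ZNF649, and no source used here says whether reads were counted by strand. The Spearman correlation of log2 fold change with the share of shared windows was 0.04 over 32 members.

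Zinc finger genes elsewhere were also mostly higher. Of 395 other tested genes with ZNF symbols, 292 rose (73.9%) and 64 fell (16.2%), with a median log2 fold change of 0.77. On chromosome 19 the genes at 19p13.2 rose in 28 of 30 cases (median 1.32), those at 19p12 in 17 of 20 (0.93), those at 19q13.12 in 23 of 23 (1.00) and those at 19q13.43 in 40 of 49 (1.42). The remaining ZNF genes of chromosome 19, neither members nor at those 4 places, rose in 39 of 55 cases and fell in 9 (median 0.69). They include ZNF888, which lies within the interval of the cluster, and were not chosen as genes outside clusters. On other chromosomes 145 of 218 rose and 51 fell (median 0.53), and genes of chromosome 19 without a ZNF symbol rose in 405 of 807 cases (50.2%, median 0.20). The median of the cluster, 1.03, lay inside the range of those 4 other chromosome 19 clusters, and no test of a difference between clusters was made.

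**Figure D4:**
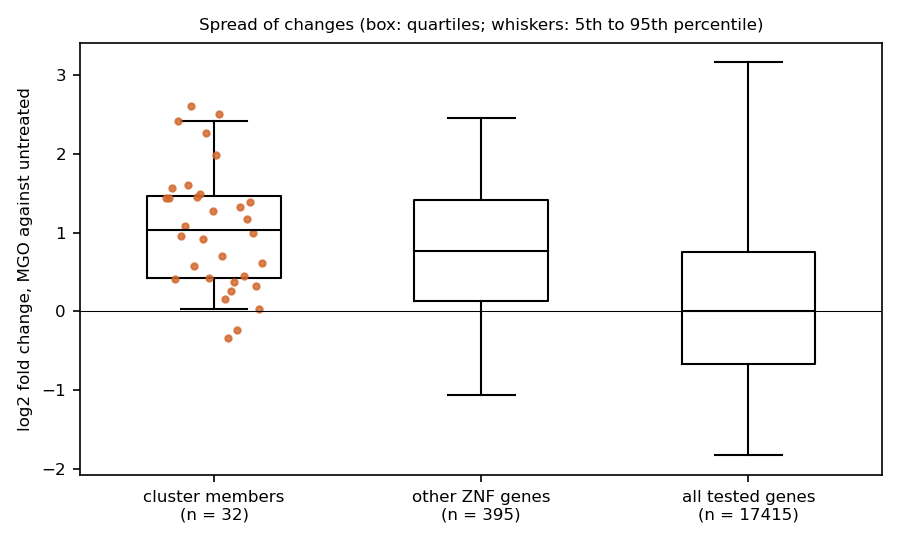
Log2 fold change of MGO against untreated for the 32 tested members (orange points with box), 395 other tested ZNF genes and all 17415 tested genes, with boxes at the quartiles, lines at the medians and whiskers from the 5th to the 95th percentile. The medians are 1.03, 0.77 and 0.01.

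Genes that share the interval but are not members went both ways. Of 80 such annotated genes, 33 were in the tables and 5 were tested, of which 2 rose and 2 fell. ZNF888, a zinc finger gene between ZNF320 and ZNF816, rose 4.81-fold (1.51 to 7.31 CPM, adjusted p = 3.21e-16), and the zinc finger pseudogene ZNF137P rose 4.76-fold from 0.110 to 0.535 CPM. PPP2R1A, the scaffold subunit of protein phosphatase 2A, which lies between ZNF836 and ZNF766, fell from 659 ± 6.83 to 512 ± 24.8 CPM (SD, n = 3 each, log2 fold change -0.36, adjusted p = 1.04e-10). NDUFV2P1, a processed pseudogene near ZNF677, fell from 1.83 to 0.613 CPM, and its reads may be shared with the parent gene.

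The machinery through which KRAB zinc finger proteins act did not move as one. Of 24 tested genes of a list of 25 cofactors, 11 rose (45.8%) and 9 fell (37.5%), near the shares of 41.8% and 41.2% among all tested genes. SETDB1, the H3K9 methyltransferase, rose from 45.2 ± 1.19 to 93.9 ± 3.15 CPM (SD, n = 3 each, 2.08-fold), and its partner ATF7IP rose from 100 ± 3.44 to 203 ± 12.7 CPM. The HP1 alpha gene CBX5 fell from 366 ± 8.98 to 218 ± 3.58 CPM, and the deacetylase gene HDAC1 from 221 ± 4.03 to 132 ± 8.83 CPM. TRIM28, the corepressor itself, fell slightly, from 1160 ± 25.1 to 1034 ± 7.40 CPM (adjusted p = 2.72e-05, log2 fold change -0.17). Of 8 listed genes derived from endogenous retroviruses, a class of sequence that such proteins bind, 5 were tested. Of these 4 rose, beside 41.8% of all tested genes, and ERVMER34-1 fell from 8.34 to 2.52 CPM. A link to the zinc finger genes was not tested. ERVFRD-1, the syncytin 2 gene, rose from 0.0503 to 1.36 CPM and ERVW-1 from 0.146 to 1.00 CPM, folds that rest on very few untreated counts.

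Replicate scatter was small beside most of these changes. The median coefficient of variation of a tested member was 5.74% in untreated and 7.51% in MGO libraries. Among the MGO libraries, replicate 1 was the lowest for 19 of 32 members and replicate 4 the highest for 16. The summed member level was 543, 566 and 584 CPM in MGO replicates 1, 3 and 4, the reverse of the order of their mitochondrial shares (8.17%, 6.00% and 5.34%). Untreated replicates 1, 2 and 4 also showed a reverse order, at 267.2, 274.5 and 270.8 CPM with shares of 5.417%, 4.204% and 4.275%. Between groups the order was not reversed, since MGO libraries had higher member levels and mostly higher mitochondrial shares. A relation between these values was not tested. Without both libraries numbered 1, 28 members were again called higher and 1 lower.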

How the data were processed

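Poly(A) RNA-seq libraries (3 untreated, 3 MGO) were analysed from raw counts per gene symbol that the authors deposited without normalization. HTSeq 0.9.1, Picard, STAR 2.4 and Trim Galore are named, with build hg38, per the submitters' processing notes. Settings, annotation and strand use were not given in the sources consulted here. No pair of libraries of a group agreed within sampling noise (chi-square per degree of freedom 1.88 to 14.7). One fit over the whole table used edgeR 4.0.16 (R 4.3.3) with filterByExpr, TMM, robust glmQLFit, a two-sided glmQLFTest and Benjamini-Hochberg adjustment at 0.05. The SE is the log2 fold change divided by the square root of F. The test was tried on simulated data in which few genes changed and all shared a common dispersion. That setting is unlike these libraries, so the trial is not offered as support for the calls. Lengths are merged exons of GENCODE release 29; promoters are from RefSeq; protein features were not analysed here. Alternatives used other scalings and filters, limma 3.58.1, DESeq2 1.42.0, replicate blocks, thinning and left-out libraries. Members, lists and tests were chosen with earlier results of these data known. All members could be named. Values in every library are given for the 8 largest changes at a mean of 5 CPM or more, the 4 highest levels, and members that fell or were not called, and those of other members were added after they were seen.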

Additional observations from a re-analysis of the deposited data

How the results depend on the processing

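Of 633 recomputed member values, 599 kept their direction and side of the threshold, 23 lost the call and 11 turned in sign, all of these for ZNF813 and ZNF83, which were not called. The count of members called higher ranged from 24 with no filter on low counts to 28, apart from 19 when tested against a fold of 1.5, where 8305 of all genes were called and 0 members lower. The median log2 fold change of members was 0.79 with no filter (37 members) and 0.84 with at least 10 counts in total (35 members). Over the 32 members of the reported test alone it was 0.852 and 0.922, with a median shift per gene of -0.183 and -0.112. ZNF813 stood at -0.071 with library size only, -0.15 with no filter, -0.078 with at least 10 counts, -0.011 in DESeq2, -0.11 without both libraries numbered 1, and -0.0996 to 0.10 on leaving out single libraries. ZNF83 stood at -0.019 with no filter and -0.44 to 0.37 on leaving out single libraries. Labels share replicate numbers 1 and 4 between groups. Over all tested genes, deviations of same-numbered libraries from their group means were hardly correlated (0.0204 and -0.0078). Replicate 1 nevertheless agreed least with the others in both groups. In untreated, chi-square per degree of freedom was 6.99 and 6.39 for pairs with replicate 1 and 1.88 for the pair without it. In MGO it was 7.44 and 14.7 against 3.43. With the replicate number as a fixed block, 27 members were higher and 0 lower, and ZNF83 stood at -0.24; as a random block, 28 were higher and 1 lower. With library size only, the median of all genes shifted to -0.0999 and 27 members were higher, and the cause of lost calls was not tested. Thinning untreated libraries to the MGO depth left 30 members tested, 27 higher and 1 lower.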
